A study of Mus musculus with 16 samples.

Results

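The genes described here encode the mitochondrial respiratory chain of the mouse, from NADH dehydrogenase to ATP synthase. They are the protein-coding genes whose symbol begins with Nduf (complex I), Uqcr (complex III), Cox4 to Cox8 (complex IV) or Atp5 (complex V), the 4 genes Sdha, Sdhb, Sdhc and Sdhd (complex II), and the mitochondrial genes of the mt-Nd, mt-Co, mt-Cytb and mt-Atp names. The rule found 106 members among the 50600 genes of the count table, 93 on nuclear chromosomes and 13 on the mitochondrial chromosome. Of these, 89 nuclear and 7 mitochondrial members had enough counts to be tested, among 16345 tested genes. The 4 nuclear members without enough counts were Cox7b2 and Cox8c, with no count in any of the 16 libraries, Cox8b, with at most 0.173 CPM (counts per 1000000 counts of the library), and Ndufa4l2, with at most 0.38 CPM. A count of 0 in 1 library allows up to 3 counts. That is 0.0622 to 0.095 per 1000000 counts of the library total at these depths, and this limit covers counting error only. The CPM values given here were further scaled by the TMM factors described below, and this limit was not.

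RNA was sequenced in bulk from cells sorted from male mice of 13 to 14 weeks, in 4 groups of 4 libraries. Brain CD11c cells were eYFP-positive cells of the ischemic hemisphere of Tg(Itgax-Venus)1Mnz mice, in which the promoter of Itgax (CD11c) drives a yellow fluorescent protein. Spleen CD11c cells were sorted by the same reporter from the spleen, and no label gives a disease state for these donors. The sample titles of brain CD11c library 1 and spleen CD11c library 4 carry the same number. The labels do not say whether these libraries come from the same mouse, and the tests treated them as independent. Ischemic microglia were CX3CR1-positive cells of the ischemic hemisphere of CX3CR1CreERT2:Rosa26-tdT mice, which carry an inducible Cre recombinase at the Cx3cr1 gene and a tdTomato reporter. Control microglia were the same population of control brain. Neither reporter is restricted to 1 cell type: CX3CR1 is also carried by other brain macrophages and by monocytes, and CD11c by dendritic cells and by some macrophages. The CD11c groups and the microglia groups come from different mouse lines, so line and cell population cannot be told apart between them. The sources used here do not give the time after ischemia or the number of animals behind a library, and p-values therefore measure the spread between these libraries.

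The respiratory chain sits in the inner mitochondrial membrane. Complexes I and II pass electrons from NADH and succinate to ubiquinone, complex III passes them to cytochrome c, and complex IV hands them to oxygen. Complexes I, III and IV pump protons, and complex V lets protons flow back to make ATP. Complex II is encoded by nuclear genes alone, whereas the other complexes join nuclear subunits with a core made inside the mitochondrion from its own DNA. In myeloid cells, the balance between oxidative phosphorylation and glycolysis is known to shift with activation.

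Of the 13 mitochondrial genes, the 6 between mt-Co1 and mt-Nd4 were all but empty in the count table. These were mt-Co2 and mt-Co3, subunits of the oxygen-reducing core of complex IV, mt-Atp6 and mt-Atp8, subunits of the proton channel of complex V, and mt-Nd3 and mt-Nd4l, core subunits of complex I. They lie side by side at 7013 to 10173 of the mitochondrial chromosome, and together they held 1 count in 16 libraries, in mt-Co3. Their neighbours were among the most counted genes, with 2868475 counts for mt-Co1 and 733784 for mt-Nd4 over the 16 libraries. Of the 6, 5 have a near-identical copy in a row of annotated pseudogenes on chromosome 1. Of all 50-base stretches of the transcript, 100% of those of mt-Co2, 99.5% of mt-Atp6, 99.9% of mt-Co3, 98% of mt-Nd3 and 98.8% of mt-Nd4l also occur in another annotated gene. No annotated copy was found for mt-Atp8, of which 0% of stretches recurred. The search covered annotated transcripts only, and the sequence between the annotated copies on chromosome 1 was not searched. The copies were nearly empty as well, with 25 counts for Gm28661, the copy of mt-Co2, and between 0 and 8 counts for Gm10925, Gm28437, Gm28438, Gm10222 and Gm28439 over the 16 libraries.

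The first 60 bases of the transcript of 3 of these genes are shown beside their copies because reads from such stretches have a matching place on both chromosomes. Sequences are from the transcripts of GENCODE release M21 on GRCm38, and the capital marks the base at which a copy differs. The mitochondrial stretches lie on the plus strand at M:7013-7072, M:7927-7986 and M:9459-9518, and the copies on the minus strand at chr1:24615506-24615565, chr1:24614592-24614651 and chr1:24613060-24613119.
mt-Co2: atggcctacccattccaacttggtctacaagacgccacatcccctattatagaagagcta
Gm28661: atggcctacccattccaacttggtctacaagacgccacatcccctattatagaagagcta
mt-Atp6: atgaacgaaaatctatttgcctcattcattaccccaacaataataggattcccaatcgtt
Gm10925: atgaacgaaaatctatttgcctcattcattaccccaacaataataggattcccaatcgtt
mt-Nd3: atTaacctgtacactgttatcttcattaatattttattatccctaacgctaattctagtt
Gm28438: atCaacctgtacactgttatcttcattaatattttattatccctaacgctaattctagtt
Over the whole aligned length, Gm28661 matched mt-Co2 at all 681 bases, Gm10925 matched mt-Atp6 at all 678 and Gm28438 differed from mt-Nd3 at 1 of 345. The row goes on into mt-Nd4, of which Gm28439 holds 876 bases without a difference, and into mt-Co1, of which Gm29216 holds 492 bases with 6 differences. Of the stretches of mt-Nd4 62.2% and of those of mt-Co1 51.1% recur elsewhere. The levels of these 2 genes are therefore uncertain where counting could split or drop shared reads, and the sources used here do not say how such reads were treated. Against this, mt-Nd1, mt-Nd6 and mt-Cytb shared no stretch, and mt-Nd2 and mt-Nd5 shared 8.19% and 7.61%.

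**Figure D1:**
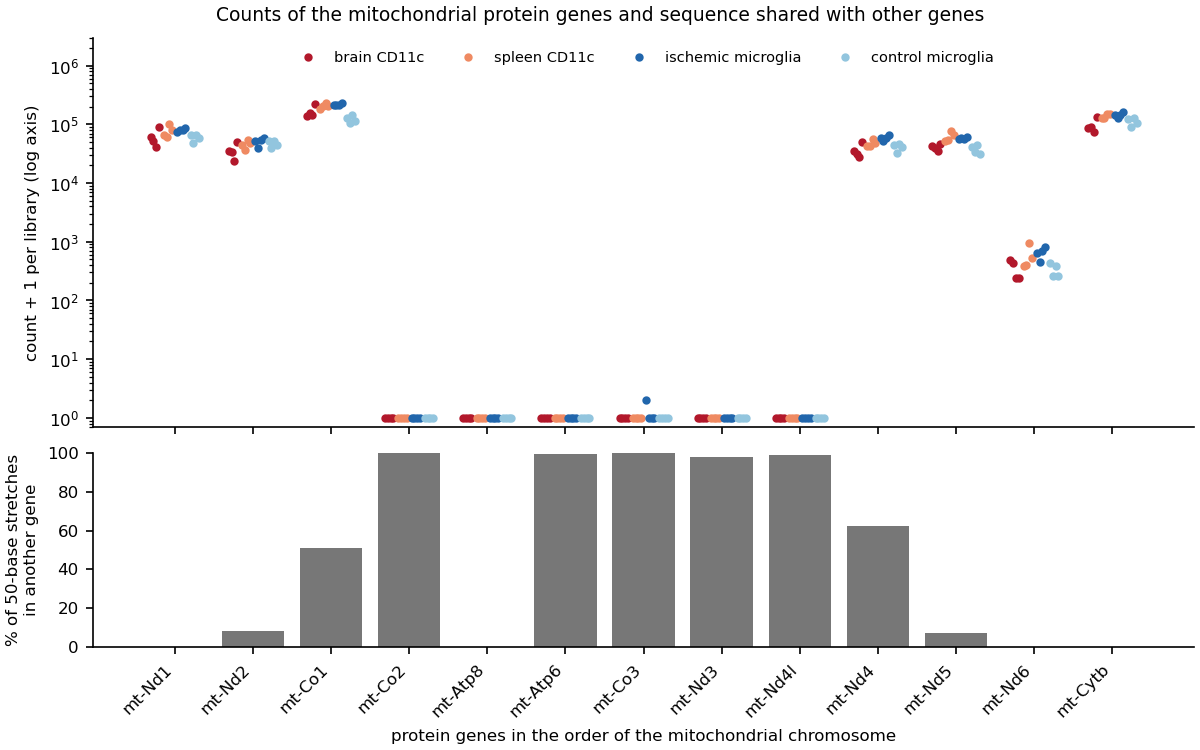
The top panel plots the count + 1 of each of the 13 mitochondrial members in each of the 16 libraries on a log axis (points, coloured by group), in their order along the chromosome, and the bars below give the percentage of 50-base stretches found in another annotated gene. The 6 genes from mt-Co2 to mt-Nd4l sit at 0 apart from 1 count of mt-Co3 in an ischemic library, while the lowest value of the other 7 genes is 236 counts, in mt-Nd6.

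The nuclear members as a whole stood highest in brain CD11c cells and lowest in control microglia. Their summed level was 7281, 6731, 5456 and 6648 CPM in the 4 brain CD11c libraries, 4990, 5057, 4909 and 5276 CPM in spleen CD11c libraries, 5356, 5559, 5179 and 5482 CPM in ischemic microglia, and 3457, 3835, 3784 and 4193 CPM in control microglia. CPM were scaled by TMM factors, which set the bulk of genes equal between libraries. All libraries of the other 3 groups lay above all control libraries, ischemic microglia and spleen CD11c cells overlapped, and brain library 3 lay within the range of ischemic microglia. The order of the middle groups depended on the scaling. As a percentage of all counts, without TMM scaling, the nuclear members made up 0.552 to 0.685% in brain CD11c cells, 0.56 to 0.604% in spleen CD11c cells, 0.466 to 0.508% in ischemic microglia and 0.342 to 0.41% in control microglia. On that scale spleen CD11c cells lay above ischemic microglia without overlap, and brain library 3 lay between these 2 groups. Of the 89 tested nuclear members, 70 had their highest group mean in brain CD11c cells and 69 their lowest in control microglia, in TMM-scaled CPM. The most frequent order was control microglia, spleen CD11c cells, ischemic microglia and brain CD11c cells, from low to high, in 34 members, and the order with ischemic microglia and spleen cells exchanged held in 27. By complex, the summed level of complex IV averaged 1169 ± 144 CPM in brain CD11c cells, 788 ± 12.2 CPM in spleen CD11c cells, 946 ± 33.4 CPM in ischemic microglia and 551 ± 63.4 CPM in control microglia (SD, n = 4 each), and that of complex I 1832 ± 237, 1454 ± 34.9, 1512 ± 20 and 1199 ± 111 CPM in the same order. In bulk RNA a lower share of cells of a type and less RNA of a gene per cell cannot be told apart.

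Within groups, 1 library often held the extreme value for many members at once. Brain CD11c library 3 was the lowest of its group in 70 of 89 members, and libraries 1 and 4 were the highest in 47 and 33. Control library 1 was the lowest of its group in 69 and control library 4 the highest in 59. The summed level of 4 RNAs that stay in the nucleus was 1139, 1158, 1628 and 569 CPM in brain CD11c libraries 1 to 4 and 1337, 1033, 800 and 620 CPM in control libraries 1 to 4, so the library with most of these RNAs was the one with the lowest members in both groups. Ischemic microglia held 520 to 670 CPM of them and spleen CD11c cells 1739 to 2143 CPM. The part of this difference in the results below was not tested.

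**Figure D2:**
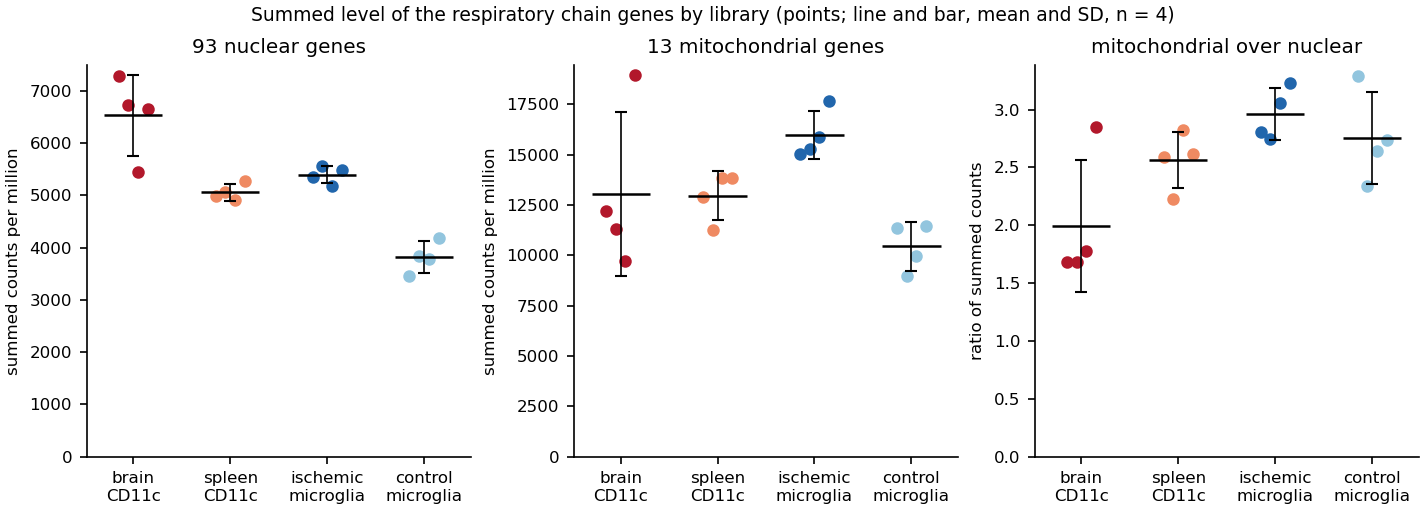
Summed CPM of the 93 nuclear members (left) and the 13 mitochondrial members (middle), in every library (points), with the group mean (line) and SD (bar, n = 4). The right panel gives the ratio of summed mitochondrial to nuclear counts in the same way. The mitochondrial sum and the ratio rest on 7 of the 13 genes, because the others were all but empty in the count table. The mean nuclear sum in TMM-scaled CPM is highest in brain CD11c cells and lowest in control microglia, and brain CD11c library 4 stands apart in the mitochondrial sum with 18945 CPM against 9698 to 12230 CPM in the 3 others of its group.

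Microglia of the ischemic hemisphere were compared with control microglia, sorted by the same marker. CX3CR1 is also carried by monocytes and other macrophages. Summed monocyte and macrophage markers were 3010 to 4280 CPM in ischemic and 1016 to 2010 CPM in control microglia. The markers did not rise together: of 10, 2 were called higher and 2 lower, with a median log2 fold change of 0.23. The part of such cells in this contrast was not tested. Nuclear genes of the chain were mostly higher in ischemic microglia. Of 89 tested members, 59 passed the test as higher and 4 as lower, where 17.7% of all tested genes were higher and 18% lower. A gene passed with a Benjamini-Hochberg adjusted p under 0.05 in edgeR's quasi-likelihood F test across all tested genes. The median log2 fold change of the members was 0.48, against -0.05 for all tested genes. In 62 members every ischemic library lay above every control library, which held for 19.9% of all genes. In every fit that left out 1 library, 47 of the 59 were still called higher.

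The members of complex I were also counted by class of subunit in this comparison. Of its 29 accessory subunits, which surround the catalytic core, 21 were higher and 1 lower, with a median log2 fold change of 0.50. Of the 7 nuclear core subunits, which carry the flavin and the iron-sulfur clusters, 2 were higher and 1 lower, with a median of 0.17. Of its 8 assembly factors, which build the complex and are not part of it, none was higher and 1 was lower, with a median of -0.20. Whether the classes differ from each other was not tested. Fold changes of the nuclear members also ran with transcript length, as described below, and the part of length in these medians was not tested.

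Ndufa1 (ENSMUSG00000016427, chrX:37187588-37191163, minus strand), a small accessory subunit of the membrane arm of complex I, had the largest called increase of an abundant nuclear member. It stood at 42.6, 36.7, 44.6 and 43.3 CPM in ischemic microglia, against 15.4, 17, 17.6 and 18.9 CPM in control microglia (log2 1.28 ± 0.16, SE; edgeR's adjusted p = 2.22e-05). The groups lay far apart, and the lowest ischemic library was well above the highest control library. Ndufa3 and Ndufa6, the other 2 of the 3 most abundant complex I members per transcript length, were higher by 0.58 ± 0.13 and 0.63 ± 0.18 log2 units (SE; edgeR's adjusted p = 0.00259 and 0.0111). Ndufab1 ran the other way, at 13.5, 11.2, 13.4 and 10.8 CPM in ischemic against 16.8, 19.9, 18 and 14.2 CPM in control microglia (log2 -0.49 ± 0.15; adjusted p = 0.0163). It encodes the mitochondrial acyl carrier protein, which also serves fatty acid synthesis, and its call was lost without control library 2 (adjusted p = 0.0547). Ndufs7, the core subunit with the last iron-sulfur cluster before ubiquinone, averaged 26.9 ± 3.78 CPM in ischemic and 34.1 ± 5.8 CPM in control microglia (SD, n = 4 each; log2 -0.34 ± 0.13; edgeR's adjusted p = 0.0427). The groups overlapped, and the call was lost without control library 2 or 4 or ischemic library 3 or 4 (adjusted p = 0.0769 to 0.114), and with limma-voom, no filter or only the 2 groups in the fit.

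Ndufaf4 (ENSMUSG00000028261, chr4:24898083-24905001, plus strand), an assembly factor of complex I, was the nuclear member with the largest called decrease. It stood at 8.95, 8.66, 7.66 and 7.99 CPM in ischemic and 12.2, 15.3, 14.2 and 11.8 CPM in control microglia (log2 -0.68 ± 0.12, SE; edgeR's adjusted p = 0.000549). All ischemic libraries lay below all control libraries, and the call held whichever library was left out. Atp5s, which encodes factor B and is not a subunit of the ATP synthase itself, was lower by a log2 of -0.63 ± 0.17 (adjusted p = 0.00856). Its levels were 5.76, 3.72, 4.78 and 5.35 CPM in ischemic against 7, 7.91, 8.12 and 7.28 CPM in control microglia. Of the 4 nuclear members that fell in ischemic microglia 1 encodes an assembly factor, 1 the acyl carrier protein, 1 factor B and 1 a core subunit.

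In complex II, which also serves the citric acid cycle, 3 of 4 members were higher. Sdhd, a membrane anchor, stood at 87, 90.8, 81.7 and 93.6 CPM in ischemic and 57, 66.1, 67.4 and 65.9 CPM in control microglia (log2 0.46 ± 0.08, SE; edgeR's adjusted p = 0.000451). Sdhc, the other anchor, was higher by 0.43 ± 0.12 (adjusted p = 0.0114). Sdhb, the iron-sulfur subunit, was higher by 0.47 ± 0.14 (adjusted p = 0.0152) and lost its call without control library 1 or ischemic library 2 (adjusted p = 0.0545 and 0.0534) and when libraries were scaled by their totals alone, without TMM factors (log2 0.32). Sdha, the flavoprotein that oxidizes succinate, did not pass, at 220 ± 6.46 CPM in ischemic and 195 ± 11.8 CPM in control microglia (SD, n = 4 each; log2 0.18 ± 0.11; edgeR's adjusted p = 0.25).

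In complex III, 7 of 8 members were higher, with a median log2 fold change of 0.71. Uqcrh, the hinge subunit beside cytochrome c1, stood at 118, 105, 120 and 126 CPM in ischemic and 66.9, 59.8, 58.8 and 75.4 CPM in control microglia (log2 0.85 ± 0.12, SE; edgeR's adjusted p = 6.35e-05). The groups were clearly apart. Uqcr10, a small subunit, was higher by 0.79 ± 0.11 (adjusted p = 5.99e-05). Uqcrc1, a large core protein, was the member that did not pass (log2 0.18 ± 0.10; adjusted p = 0.177).

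In complex IV, 13 of 16 tested members were higher and none was lower, with a median log2 fold change of 0.76. Cox4i1 (ENSMUSG00000031818, chr8:120668222-120674207, plus strand), the common form of regulatory subunit 4, stood at 302, 345, 305 and 305 CPM in ischemic and 158, 147, 155 and 194 CPM in control microglia (log2 0.94 ± 0.12, SE; edgeR's adjusted p = 2.3e-05). No control library came near the ischemic ones. Of the stretches of Cox4i1, 14.7% overlap another annotated gene. Cox6b1, a subunit on the outer face, was higher by 0.79 ± 0.12 (adjusted p = 0.000151) and Cox7b by 0.96 ± 0.13 (adjusted p = 4.65e-05).

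In complex V, 13 of 17 members were higher and 1 lower, with a median of 0.59. All 5 subunits of the catalytic F1 head and all 4 of the peripheral stalk were higher. Atp5b, the catalytic beta subunit, was the most abundant nuclear member and stood at 560, 605, 528 and 604 CPM in ischemic against 375, 404, 381 and 427 CPM in control microglia (log2 0.53 ± 0.13, SE; edgeR's adjusted p = 0.00433). The alpha subunit Atp5a1 was higher by 0.49 ± 0.12 (adjusted p = 0.00613). Atp5mpl, a small proteolipid of the membrane part, stood at 51.1, 50.3, 51.5 and 58.3 CPM in ischemic and 26.1, 23.7, 24.6 and 29.6 CPM in control microglia (log2 1.02 ± 0.13; adjusted p = 3.44e-05). It kept its call in every fit that left out 1 library.

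**Figure D3:**
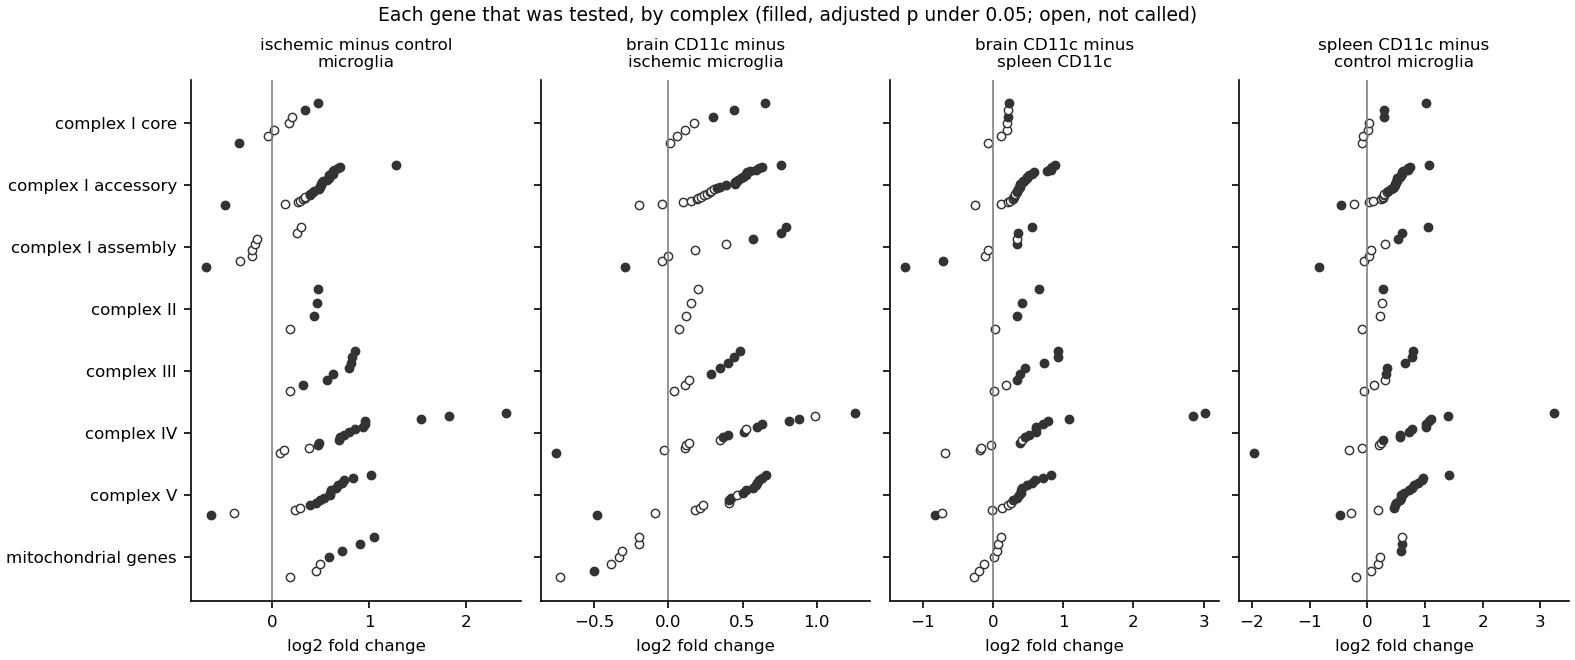
Log2 fold change of each tested nuclear member by complex, with complex I split into core, accessory and assembly genes, and of the 7 tested mitochondrial members, in the 4 comparisons, each panel on its own axis. Filled points passed an adjusted p under 0.05 and open points did not: in ischemic against control microglia 59 nuclear members are filled above 0 and 4 below, and all 7 mitochondrial points lie below 0 in brain CD11c cells against ischemic microglia.

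Brain CD11c cells were compared with microglia of the same ischemic hemisphere, the contrast named as the aim of the series. Here 45 of 89 nuclear members were higher and 3 lower, where 19.7% of all tested genes were higher and 19.1% lower. The median log2 fold change was 0.39, against 0.00 for all genes. In 28 members every brain CD11c library lay above every ischemic library, against 14.9% of all genes. The number higher depended on the fit. With brain CD11c libraries 3 and 4 alone, chosen after seeing the data, it was 31, and with libraries 1 and 2 alone 59. Over all genes, those 2 fits called 3471 and 3626 higher. With no filter on low counts 32 members were higher, and with library totals 58, where 2593 and 3964 of all genes were. Of the 45, 35 were still called in every fit that left out 1 library. Complex I had 22 of 44 members higher and 1 lower, complex III 5 of 8 higher, complex IV 8 of 16 higher and 1 lower, and complex V 10 of 17 higher and 1 lower. None of the 4 complex II members was called at an adjusted p under 0.05, with log2 fold changes of 0.07 to 0.20.

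Cox5a, which carries a site for thyroid hormone and helps hold the core of complex IV, had the largest called increase after Cox6b2 in this contrast. It stood at 101, 93.5, 69.3 and 89.7 CPM in brain CD11c cells, against 48.5, 47.5, 46.6 and 48.6 CPM in ischemic microglia (log2 0.88 ± 0.12, SE; edgeR's adjusted p = 1.97e-05). Library 3 was the lowest of the CD11c libraries and still lay above all microglial ones. Its neighbour in the complex, the zinc-binding subunit Cox5b, was higher by 0.81 ± 0.16 (adjusted p = 0.00068). Of the stretches of Cox5a 29.2% overlap another annotated gene, and 25.9% of those of Cox5b recur elsewhere in the annotation. Ndufb6, an accessory subunit of complex I, stood at 35, 31.1, 21.2 and 31.1 CPM in brain CD11c cells and 18.5, 18.1, 17.2 and 15.9 CPM in ischemic microglia (log2 0.76 ± 0.15; adjusted p = 0.000587), with 34.1% of its stretches overlapping another gene. The assembly factor Ndufaf8 was higher by 0.79 ± 0.21 (adjusted p = 0.00617).

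The assembly factors did not move as a block between the 2 populations of the ischemic hemisphere. Ndufaf4 was higher in brain CD11c cells, at 11.8, 13.1, 12.1 and 12.5 CPM, against 8.95, 8.66, 7.66 and 7.99 CPM in ischemic microglia (log2 0.57 ± 0.13, SE; edgeR's adjusted p = 0.00166). Ndufaf7, a methyltransferase that modifies a core subunit during assembly, was lower, at 26.8, 24.5, 22.5 and 22.7 CPM against 30.2, 28.3, 28.7 and 31 CPM (log2 -0.29 ± 0.08; adjusted p = 0.0108). In both genes the 2 groups did not overlap. The call of Ndufaf7 was lost with library totals (log2 -0.18), with only the 2 groups in the fit (log2 -0.27) and with brain CD11c libraries 1 and 2 alone (log2 -0.21). Atp5s was lower by a log2 of -0.48 ± 0.17 (adjusted p = 0.036) and lost its call without ischemic library 1, 3 or 4 or brain CD11c library 1 or 2 (adjusted p = 0.0734 to 0.14). That call was also lost with library totals (log2 -0.36), limma-voom, no filter, only the 2 groups in the fit, and brain CD11c libraries 3 and 4 alone (log2 -0.33).

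Brain CD11c cells were compared with spleen CD11c cells sorted by the same reporter. Nuclear members were again mostly higher in brain cells, with 57 of 89 higher and 3 lower, where 31.2% of all genes were higher and 33% lower. The median log2 fold change was 0.37, against -0.04 for all genes, and 35 members lay above in every library, against 25.3% of all genes. The count depended on the scaling and on the brain libraries. When libraries were scaled by their totals alone, 19 were higher and 8 lower, and the median was 0.10 while that of all genes was -0.30. Over all 16345 tested genes, that scaling called 3807 higher and 7113 lower. The share of members called higher was thus not above that of all genes. The members' median relative to all genes was 0.41 with TMM scaling and 0.40 with library totals. The brain CD11c libraries fell into 2 pairs on the third principal component of log2 CPM, at -18.7 and -22.9 for libraries 1 and 2 and at 49.7 and 65.3 for libraries 3 and 4, whose sample titles also lack the reporter's name. Summed monocyte and macrophage markers were 12694, 11725, 4859 and 4252 CPM in libraries 1 to 4, and summed dendritic cell markers 11412, 16424, 23398 and 29527 CPM. Microglia markers summed to 12612 to 14106 CPM in brain and 1167 to 1669 CPM in spleen CD11c cells, and all 10 were called higher in brain. Spleen CD11c libraries held summed B cell markers of 24548 to 86647 CPM, against 181 to 266 CPM in brain CD11c libraries. Neutrophil markers summed to 225 to 1013 CPM in spleen and 1.74 to 8.64 CPM in brain CD11c cells. T and NK cell markers summed to 141 to 389 CPM and 5.49 to 15.4 CPM in the same order. The part of these differences in the results was not tested. With brain CD11c libraries 3 and 4 alone, chosen after seeing the data, 32 nuclear members were higher and 6 lower. Over all genes, that fit called 4847 higher and 6054 lower. Without brain CD11c library 1, the median was 0.27.

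Complex I had 26 of 44 members higher and 2 lower, of which 21 higher were among the 29 accessory subunits. Complex II had 3 of 4 higher, complex III 6 of 8, complex IV 11 of 16, and complex V 11 of 17 with 1 lower. Cox8a (ENSMUSG00000035885, chr19:7215153-7217616, minus strand), the common form of the smallest complex IV subunit, stood at 61.1, 56.5, 64.8 and 78.1 CPM in brain CD11c cells, against 29.3, 28.5, 32.2 and 33.6 CPM in spleen CD11c cells (log2 1.08 ± 0.15, SE; edgeR's adjusted p = 1.44e-05). Uqcrq, a ubiquinone-binding subunit of complex III, stood at 78.6, 63.5, 48 and 60.5 CPM in brain and 32.8, 31.8, 31.7 and 35.3 CPM in spleen CD11c cells (log2 0.93 ± 0.13; adjusted p = 1.27e-05). Uqcr11, the smallest subunit of complex III, was also higher by 0.93 ± 0.14 (adjusted p = 2.46e-05). In all 3 genes every brain library exceeded every spleen library. Sdhc was higher by 0.65 ± 0.12 (adjusted p = 0.000213), whereas the call of Sdhb (log2 0.41 ± 0.14; adjusted p = 0.0184) was lost without brain CD11c library 1 or 2 (adjusted p = 0.116 and 0.08), with library totals (log2 0.13) and with brain CD11c libraries 3 and 4 alone (log2 0.05). With library totals Sdhc was higher by 0.38.

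The 3 nuclear members that were lower in brain CD11c cells were 2 assembly factors and factor B. Ndufaf1 (ENSMUSG00000027305, chr2:119655446-119662827, minus strand), a chaperone of complex I assembly, stood at 7.56, 7.73, 4.29 and 5.03 CPM in brain and 14.8, 13.6, 14.2 and 16.1 CPM in spleen CD11c cells (log2 -1.25 ± 0.18, SE; edgeR's adjusted p = 1.73e-05). Ndufaf4 stood at 11.8 to 13.1 CPM in brain and 17.3 to 24 CPM in spleen CD11c cells (log2 -0.71 ± 0.12; adjusted p = 0.000108). Atp5s was lower by a log2 of -0.82 ± 0.17 (adjusted p = 0.000526). The 3 calls held in every fit that left out 1 library.

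Between the ischemic-microglia contrast and the brain-spleen contrast, which share no library, 46 nuclear members were called higher in both. That is 78% of those higher in ischemic microglia and 80.7% of those higher in brain CD11c cells over spleen. Of all 89 tested nuclear members, 64% were higher in brain CD11c cells over spleen and 66.3% in ischemic microglia, so a large overlap was already set by these shares. Over all tested genes, 1597 were called higher in both, which is 55.3% of those higher in ischemic microglia and 31.3% of those higher in brain CD11c cells over spleen. Of all tested genes, 31.2% were higher in brain CD11c cells over spleen and 17.7% in ischemic microglia. The difference between these shares was not tested. Both contrasts come from a single model with a common estimate of spread.

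Spleen CD11c cells were set against control microglia as the 2 groups not taken from ischemic tissue, with the limit that tissue, population and mouse line differ together. Of 89 nuclear members, 57 were higher in spleen CD11c cells and 4 lower, where 37.1% of all genes were higher and 31.7% lower. The median log2 fold change was 0.48, against 0.11 for all genes. In 57 members every spleen library lay above every control library, against 38.4% of all genes. Complex I had 26 of 44 higher and 2 lower, complex II 1 of 4 higher, complex III 5 of 8, complex IV 11 of 16 with 1 lower, and complex V 14 of 17 with 1 lower. Cox5a stood at 67.9, 54.6, 53.2 and 53.5 CPM in spleen CD11c cells and 23.2, 27.2, 24.8 and 31 CPM in control microglia (log2 1.11 ± 0.12, SE; edgeR's adjusted p = 4.32e-07). Cox7b, which is X-linked, was higher by 1.07 ± 0.13 (adjusted p = 1.57e-06).

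The assembly factors of complex I spread widest in this contrast. Ndufaf1 was higher in spleen CD11c cells, at 14.8, 13.6, 14.2 and 16.1 CPM, against 5.95, 8.2, 7.79 and 6.38 CPM in control microglia (log2 1.05 ± 0.18, SE; edgeR's adjusted p = 7.48e-05). Ndufaf7 was lower, at 20.4, 19.2, 19.2 and 17.6 CPM, against 32.5, 36.2, 34.8 and 33.6 CPM (log2 -0.84 ± 0.08; adjusted p = 1.56e-07). Both differences were several times the spread within a group. Ndufa9, an accessory subunit near the quinone site, was lower by a log2 of -0.46 ± 0.12 (adjusted p = 0.00308), and was not called with library totals (log2 -0.23). Atp5g1, at 2.44 ± 0.392 CPM in spleen CD11c cells and 3.4 ± 0.141 CPM in control microglia (SD, n = 4 each), was lower by a log2 of -0.48 ± 0.19 (edgeR's adjusted p = 0.0341), and this call was lost in 7 of the 8 fits that left out 1 library, all but the one without spleen library 4 (adjusted p = 0.0512 to 0.0986), and with library totals (log2 -0.26) or no filter.

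The mitochondrial genes with counts did not follow the order of the nuclear ones. Their summed level was 12230, 11297, 9698 and 18945 CPM in brain CD11c cells, 12925, 11253, 13863 and 13841 CPM in spleen CD11c cells, 15052, 15309, 15866 and 17681 CPM in ischemic microglia, and 11381, 8964, 9983 and 11481 CPM in control microglia. Apart from brain library 4, ischemic microglia were the highest group on this scale. As a percentage of all counts, without TMM scaling, the mitochondrial members made up 0.982 to 1.9% in brain CD11c cells, 1.34 to 1.7% in spleen CD11c cells, 1.34 to 1.55% in ischemic microglia and 0.89 to 1.13% in control microglia, so spleen CD11c cells had the highest mean (1.51%, against 1.43% in ischemic microglia) and the 2 groups overlapped. The ratio of summed mitochondrial to summed nuclear counts was 1.68, 1.68, 1.78 and 2.85 in brain CD11c libraries 1 to 4, 2.23 to 2.82 in spleen CD11c cells, 2.75 to 3.23 in ischemic microglia and 2.34 to 3.29 in control microglia. Brain CD11c libraries 1 to 3 thus held the lowest ratios of all 16 libraries, and library 4 lay in the range of the other groups.

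In ischemic against control microglia, 4 of the 7 tested mitochondrial genes were higher and none lower, where 17.7% of all tested genes were higher and 18% lower, with a median log2 fold change of 0.58. mt-Co1 (chrM:5328-6872), the catalytic subunit of complex IV, stood at 5441, 5691, 5529 and 6218 CPM in ischemic and 3211, 2659, 3022 and 3364 CPM in control microglia (log2 0.90 ± 0.16, SE; edgeR's adjusted p = 0.000465). mt-Nd5, a proton-pumping subunit of complex I with few shared stretches, stood at 1438, 1538, 1453 and 1641 CPM in ischemic and 1023, 852, 910 and 901 CPM in control microglia (log2 0.72 ± 0.14; adjusted p = 0.000765). Both groups were tight and apart. mt-Nd6, the single protein gene of the other strand, whose mRNA is known in human cells to lack a poly(A) tail, averaged 17.1 ± 4.03 CPM in ischemic and 8.25 ± 1.85 CPM in control microglia (SD, n = 4 each; log2 1.05 ± 0.30; edgeR's adjusted p = 0.0114). mt-Nd4 was higher by 0.58 ± 0.18 (adjusted p = 0.0229), a call lost without control library 2 or 3 or ischemic library 4 (adjusted p = 0.067 to 0.0866) and with library totals (log2 0.43).

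The 3 mitochondrial genes that did not pass in that contrast were mt-Nd1, mt-Cytb and mt-Nd2. mt-Nd1 averaged 2100 ± 182 CPM in ischemic and 1497 ± 231 CPM in control microglia (SD, n = 4 each; log2 0.49 ± 0.23; edgeR's adjusted p = 0.104). mt-Cytb, the sole mitochondrial subunit of complex III, averaged 3767 ± 361 CPM in ischemic and 2763 ± 342 CPM in control microglia (log2 0.45 ± 0.19, SE; adjusted p = 0.0706). In both genes the ischemic libraries all lay above the control libraries. mt-Nd2 had overlapping groups (log2 0.18 ± 0.21; edgeR's adjusted p = 0.536). The 12S ribosomal RNA mt-Rnr1, which is no member, averaged 308 ± 117 CPM in brain CD11c cells, 145 ± 32.2 CPM in spleen CD11c cells, 290 ± 52.4 CPM in ischemic microglia and 124 ± 34.7 CPM in control microglia.

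In brain CD11c cells against ischemic microglia all 7 mitochondrial fold changes were below 0, from -0.73 to -0.20, while the nuclear median was above 0. Only mt-Nd4 was called, where 19.1% of all tested genes were lower. It stood at 1078, 887, 768 and 1575 CPM in brain CD11c cells and 1450, 1391, 1529 and 1728 CPM in ischemic microglia (log2 -0.50 ± 0.18, SE; edgeR's adjusted p = 0.041). Library 4 of the CD11c cells overlapped the microglia, and the others lay below. The number of calls rested on single libraries. Without brain CD11c library 4, 6 of 7 were lower, among them mt-Cytb (log2 -0.65; adjusted p = 0.00174), mt-Co1 (log2 -0.43; adjusted p = 0.0077) and mt-Nd4 (log2 -0.74; adjusted p = 0.000982), and mt-Nd6 was not called (log2 -0.60; adjusted p = 0.147). Without ischemic library 1, 3 or 4, or brain CD11c library 2 or 3, none was called, and with library totals none was called either. Without ischemic library 2 or brain CD11c library 1, mt-Nd4 itself was not called (adjusted p = 0.0523 and 0.077), nor was it with only the 2 groups in the fit (log2 -0.47) or with brain CD11c libraries 3 and 4 alone (log2 -0.37).

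In brain against spleen CD11c cells no mitochondrial gene was called, where 31.2% of all tested genes were higher and 33% lower, with log2 fold changes of -0.27 to 0.11 and a smallest adjusted p of 0.202. Without brain CD11c library 4, mt-Cytb was lower (log2 -0.37; edgeR's adjusted p = 0.0271). In spleen CD11c cells against control microglia, 2 of 7 were higher, a share below the 37.1% of all tested genes. mt-Nd5 stood at 1317, 1138, 1605 and 1517 CPM in spleen CD11c cells against 1023, 852, 910 and 901 CPM in control microglia (log2 0.60 ± 0.14, SE; edgeR's adjusted p = 0.000996). mt-Co1 was higher by 0.59 ± 0.16 (adjusted p = 0.00371). In both, every spleen library lay above every control library.

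Several complex IV subunits and the c ring of complex V exist as paralogues from separate genes, a common form and forms known from muscle, testis or lung. In all 4 groups the common form was far more abundant in each pair of complex IV. Cox6a2 (ENSMUSG00000030785, chr7:128205435-128206387, minus strand), the heart and muscle form of subunit 6a, varied most between groups. It stood at 6.11, 6.02, 2.63 and 5.44 CPM in brain CD11c cells, 0.498, 0.467, 0.99 and 0.533 CPM in spleen CD11c cells, 8.19, 7.79, 11.3 and 7.04 CPM in ischemic microglia, and 2.47, 1.92, 3.23 and 2.08 CPM in control microglia. The order was thus ischemic microglia, brain CD11c cells, control microglia and spleen CD11c cells, from high to low. Brain CD11c library 3 lay within the range of control microglia, and these 2 groups were not tested against each other.

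Cox6a2 was higher in ischemic than in control microglia by 1.82 ± 0.30 log2 units (SE; edgeR's adjusted p = 0.000226) and in brain than in spleen CD11c cells by 3.01 ± 0.32 (adjusted p = 5.55e-07). It was lower in spleen CD11c cells than in control microglia by a log2 of -1.96 ± 0.32 (adjusted p = 3.81e-05). These 3 calls held in every fit that left out 1 library. It was lower in brain CD11c cells than in ischemic microglia (log2 -0.76 ± 0.29; adjusted p = 0.0451), a call lost without any 1 of the 4 ischemic libraries or brain CD11c library 3 or 4 (adjusted p = 0.0515 to 0.161), with library totals (log2 -0.67), with only the 2 groups in the fit (log2 -0.74) and with brain CD11c libraries 1 and 2 alone (log2 -0.50). Per transcript length, Cox6a2 made up 3.13 to 4.91% of Cox6a1 plus Cox6a2 in brain CD11c cells, 0.627 to 1.47% in spleen CD11c cells, 7.87 to 11.4% in ischemic microglia and 2.64 to 5.1% in control microglia. Itgad, the integrin gene that overlaps 3.33% of the stretches of Cox6a2, stood at 347 to 500 CPM in spleen CD11c cells, where Cox6a2 was lowest, and at 0.231 to 3.15 CPM in the other groups.

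The common form Cox6a1 stood at 114, 97.9, 68.3 and 90.8 CPM in brain CD11c cells, 66.3, 60.3, 55.8 and 61.2 CPM in spleen CD11c cells, 76, 76.6, 74.1 and 64.4 CPM in ischemic microglia and 43.6, 51.9, 50.5 and 64.5 CPM in control microglia. It was higher in brain than in spleen CD11c cells (log2 0.61 ± 0.14, SE; edgeR's adjusted p = 0.00117), by 0.33 with library totals. It was also higher in ischemic than in control microglia (log2 0.47 ± 0.14; adjusted p = 0.0155), a call lost without control library 1 (adjusted p = 0.0555) and with library totals (log2 0.32).

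Cox7a1, the heart and muscle form of subunit 7a, was scarce throughout. It stood at 2.16, 1.93, 0.443 and 1.77 CPM in brain CD11c cells, 0.423, 0.106, 0.144 and 0.208 CPM in spleen CD11c cells, 0.802, 0.452, 0.967 and 0.953 CPM in ischemic microglia and 0.2, 0.282, 0.267 and 0.347 CPM in control microglia. It was higher in brain than in spleen CD11c cells by 2.84 ± 0.52 log2 units (SE; edgeR's adjusted p = 0.000156), with all brain libraries above all spleen ones. In ischemic against control microglia it was higher by 1.53 ± 0.51 (adjusted p = 0.0266), but the call was lost without control library 1, 2 or 3 or ischemic library 1, 3 or 4 (adjusted p = 0.0508 to 0.0686) and with limma-voom (log2 1.47). Its common partner Cox7a2 averaged 68.7 ± 13.5 CPM in brain CD11c cells, 52.6 ± 5.05 CPM in spleen CD11c cells, 53.2 ± 2.96 CPM in ischemic microglia and 32 ± 3.41 CPM in control microglia (SD, n = 4 each). Cox7a2l, which joins complexes III and IV into supercomplexes, was higher in ischemic than in control microglia (log2 0.69 ± 0.19; edgeR's adjusted p = 0.00845), and its brain CD11c libraries ran from 70.3 to 148 CPM.

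Cox6b2, the testis form of subunit 6b, averaged 3.41 ± 1.82 CPM in brain CD11c cells, 3.47 ± 0.911 CPM in spleen CD11c cells, 1.42 ± 0.158 CPM in ischemic microglia and 1.31 ± 0.286 CPM in control microglia (SD, n = 4 each). It was higher in brain CD11c cells than in ischemic microglia (log2 1.26 ± 0.32, SE; edgeR's adjusted p = 0.00528) and in spleen CD11c cells than in control microglia (log2 1.40 ± 0.32; adjusted p = 0.000978). Its highest brain CD11c value, 6.07 CPM, was in library 4: without that library the first of these differences was 0.82 (adjusted p = 0.019), and with brain CD11c libraries 1 and 2 alone it was 0.69 and not called. It was called in neither contrast within a population (log2 0.12 ± 0.32 in ischemic against control microglia, adjusted p = 0.809, and -0.03 ± 0.31 in brain against spleen CD11c cells, adjusted p = 0.947).

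Cox4i2, the lung form of subunit 4 known to be raised by low oxygen, stayed under 1 CPM in all 16 libraries. It stood at 0.125, 0.478, 0.157 and 0.37 CPM in ischemic and 0.05, 0.0256, 0.0206 and 0.116 CPM in control microglia (log2 2.41 ± 0.75, SE; edgeR's adjusted p = 0.0192). The groups were barely apart, and the call was lost without control library 2 or 3 or ischemic library 2 or 4 (adjusted p = 0.0518 to 0.065). In spleen CD11c cells it stood at 0.796, 0.234, 0.247 and 0.741 CPM and was higher than in control microglia (log2 3.23 ± 0.73; adjusted p = 0.000884). A gene this low passed the filter on low counts only through its higher groups. Ndufa4l2, the paralogue of Ndufa4 that is known as a target of hypoxia-inducible factor, was not tested and reached at most 0.0266 CPM in ischemic microglia and 0.144 CPM in control microglia. Ndufa4 itself, a complex IV subunit despite its name, was higher in ischemic than in control microglia (log2 0.70 ± 0.16; adjusted p = 0.00368).

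The 3 genes of the c ring of ATP synthase encode the same mature protein. Atp5g3 carried most of their counts, at 174, 159, 113 and 154 CPM in brain CD11c cells, 109, 113, 112 and 121 CPM in spleen CD11c cells, 96.1, 107, 91 and 98.8 CPM in ischemic microglia and 49.6, 59.1, 59.1 and 66.9 CPM in control microglia. It was higher in ischemic than in control microglia (log2 0.74 ± 0.12, SE; edgeR's adjusted p = 0.000204) and in brain CD11c cells than in ischemic microglia (log2 0.61 ± 0.12; adjusted p = 0.000658). Atp5g1 averaged 2.42 to 3.4 CPM in the 4 groups. Atp5g2 averaged 0.639 to 1.72 CPM and was called higher in spleen CD11c cells than in control microglia (log2 1.42 ± 0.43; adjusted p = 0.00717). Of its stretches 87.4% recur in another annotated gene, so its level is uncertain.

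**Figure D4:**
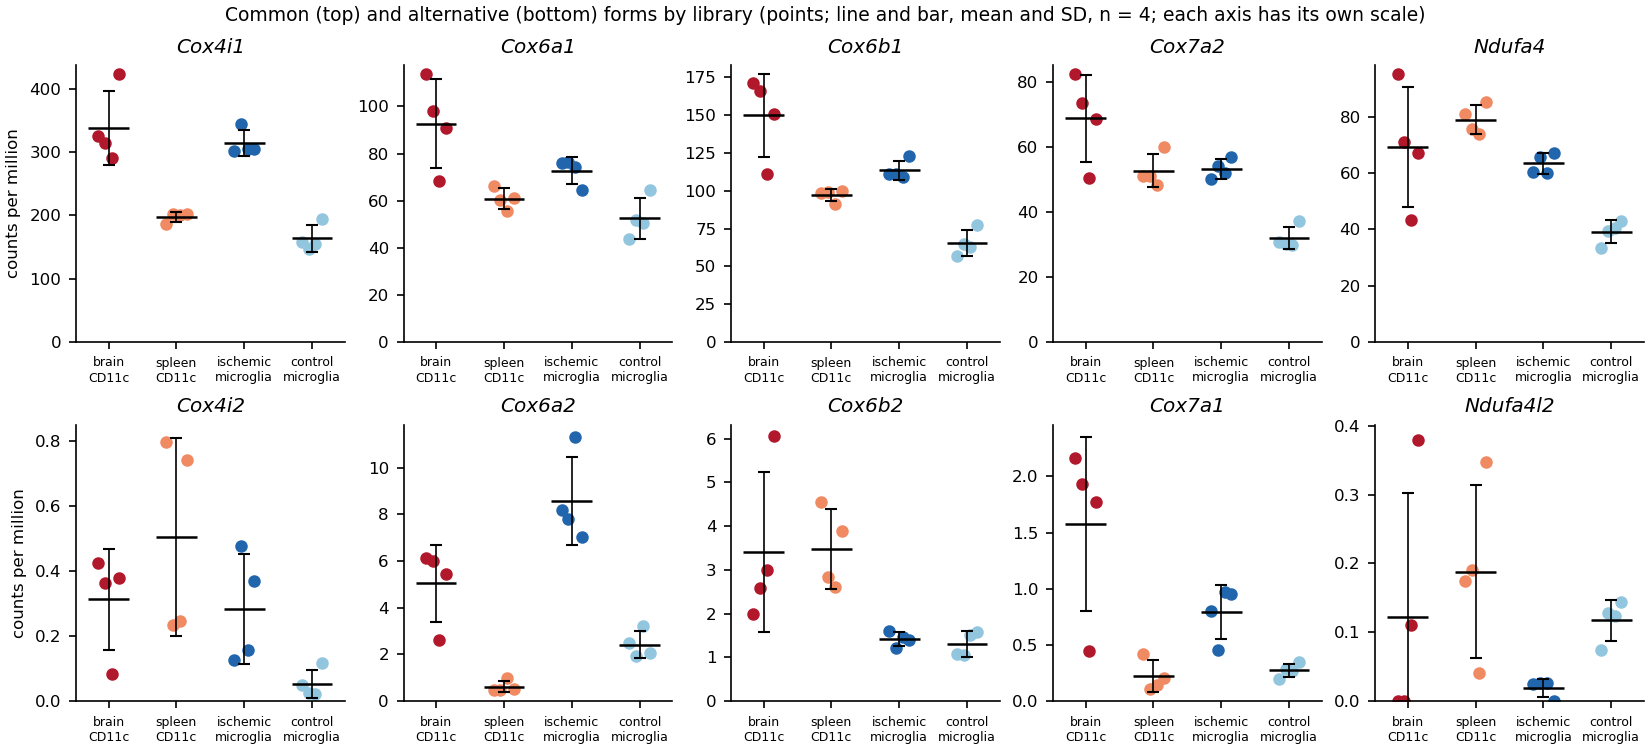
CPM of the common form (top) and the alternative form (bottom) of complex IV subunits 4, 6a, 6b and 7a and of Ndufa4 in every library (points), with the group mean (line) and SD (bar, n = 4), each panel on its own linear axis. Cox6a2 runs from 0.467 CPM in spleen CD11c cells to 11.3 CPM in ischemic microglia, while Cox6a1 stays between 43.6 and 114 CPM.

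Fold changes ran with the length of the transcript. Across the 89 tested nuclear members, Spearman's rho between transcript length and log2 fold change was -0.45 in ischemic against control microglia, -0.43 in brain CD11c cells against ischemic microglia, -0.37 in brain against spleen CD11c cells and -0.35 in spleen CD11c cells against control microglia. These values are a description across genes that share the same libraries, and the contrasts share libraries too. Of the 50 members with a transcript under 1000 bases, 36, 33, 36 and 35 were called higher in the 4 contrasts in that order, and of the 39 longer ones 23, 12, 21 and 22. Among 746 other tested protein-coding genes with a transcript under 1000 bases, 28.3%, 30.3%, 36.3% and 46.6% were called higher. The share of short members called higher was above the share of other short genes in each contrast, and the difference was not tested.

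**Figure D5:**
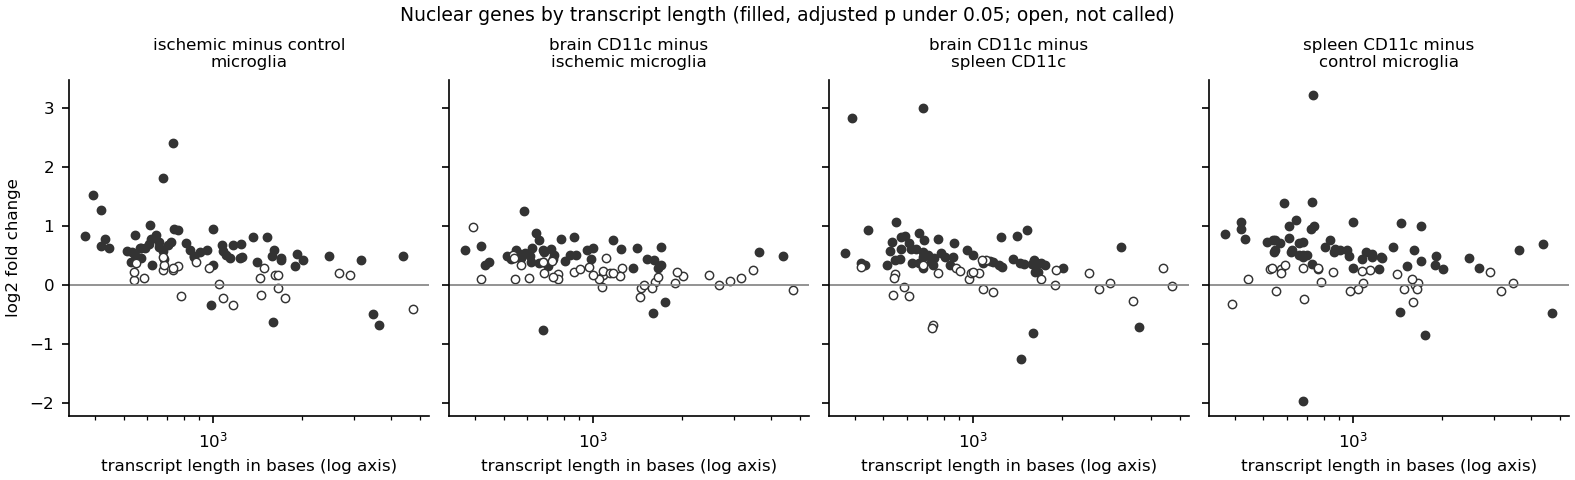
Log2 fold change against transcript length in bases (log axis) for the 89 tested nuclear members in the 4 comparisons, with filled points for an adjusted p under 0.05 and open points for the rest. The points drift down to the right, with Spearman's rho of -0.45, -0.43, -0.37 and -0.35 from the left panel to the right.

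Besides the mitochondrial genes described above, 10 nuclear members share over 25% of their stretches with another annotated gene, and their counts are uncertain where reads could be split or dropped. They were Atp5g2 and Cox5b, named above, and Atp5l (68.5%), Cox7c (53%), Atp5h (47.9%), Uqcrb (43.2%), Ndufb4 (37%), Ndufs3 (35.8%), Ndufs5 (31.1%) and Ndufa12 (26.2%), listed for this share and not for their change. Cox7c, a subunit of complex IV, averaged 5.98 CPM in brain CD11c cells and 3.96 CPM in control microglia.

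The promoters of respiratory chain genes are known to bind nuclear respiratory factor 1, ETS factors such as GABP (nuclear respiratory factor 2) and YY1. Promoter windows of 250 bases before to 50 after the start, from RefSeq on GRCm38.p6, were found for 72 of the 89 tested nuclear members (77 windows). The letters GCATGCG, the core of the site of nuclear respiratory factor 1, on either strand, stood in 16.9% of the members' windows, against 5.82% of 13832 windows of other tested protein-coding genes and 3.58% of all 32851 windows. The letters CCGGAAG of ETS factors, on either strand, stood in 23.4%, 15.9% and 8.86% of the same sets. The letters AAGATGGC of YY1, on either strand, stood in 13%, 4% and 2.75%. None of the 3 motifs is contained in another, and a match describes letters and not a bound site.

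Stretches of 4 windows with the core site of nuclear respiratory factor 1 and of 3 with the YY1 letters are shown, chosen after their values were seen, with the letters of the motif in capitals. The first 4 belong to members of complexes I, V and III and to the assembly factor that fell in ischemic microglia, at chr17:56717678-56717737 (plus), chr5:108434414-108434473 (minus), chr9:108936668-108936697 (plus) and chr4:24897946-24898005 (plus).
Ndufa11: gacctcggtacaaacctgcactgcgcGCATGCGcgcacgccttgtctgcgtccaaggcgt
Atp5k: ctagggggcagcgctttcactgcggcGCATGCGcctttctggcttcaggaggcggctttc
Uqcrc1: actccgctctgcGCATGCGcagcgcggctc
Ndufaf4: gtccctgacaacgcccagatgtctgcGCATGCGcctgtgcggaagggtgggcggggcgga
The next 3 lie just downstream of the start of complex I members, at chr19:44555393-44555422 (minus), chr13:114388045-114388074 (minus) and chr10:80249462-80249491 (plus).
Ndufb8: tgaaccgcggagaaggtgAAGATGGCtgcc
Ndufs4: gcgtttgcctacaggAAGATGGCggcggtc
Ndufs7: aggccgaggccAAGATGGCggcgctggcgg
The genes with these letters near their start had different values. In ischemic against control microglia Ndufa11, an accessory subunit, was higher by 0.51 ± 0.13 log2 units (SE; edgeR's adjusted p = 0.00752), Atp5k, subunit e of ATP synthase, by 0.83 ± 0.16 (adjusted p = 0.000713), Uqcrc1 was not called and Ndufaf4 was lower. Ndufb8 and Ndufs4, both accessory subunits, were higher by 0.58 ± 0.14 and 0.43 ± 0.13 (adjusted p = 0.00408 and 0.015), the call of Ndufs4 being lost without ischemic library 4 (adjusted p = 0.0542), whereas the core subunit Ndufs7 was lower.

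By presence of the letters, 8 of 13 members with the core site of nuclear respiratory factor 1 were higher in ischemic microglia and 1 lower, against 38 of 59 higher and 2 lower without it. With the ETS letters 13 of 18 were higher and none lower, against 33 of 54 higher and 3 lower without them. With the YY1 letters 7 of 10 were higher and 1 lower, against 39 of 62 higher and 2 lower without them. None of these differences was tested.

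Genes of neighbouring pathways did not all follow the chain. In the citric acid cycle list of 18 genes, 10 were higher and 1 lower in ischemic against control microglia, 5 and 2 in brain CD11c cells against ischemic microglia, 4 and 2 in brain against spleen CD11c cells, and 9 and 2 in spleen CD11c cells against control microglia. These and the following counts are to be set beside the shares of all tested genes called higher and lower, which were 17.7% and 18% in the first contrast, 19.7% and 19.1% in the second, 31.2% and 33% in the third and 37.1% and 31.7% in the last. The 22.2% of citric acid cycle genes higher in brain over spleen CD11c cells was below that share. Idh2, the NADP-dependent isocitrate dehydrogenase of mitochondria, was the one lower in ischemic microglia, at 80.8 ± 5.24 CPM against 157 ± 6.54 CPM in control microglia (SD, n = 4 each; log2 -0.96 ± 0.10, SE; edgeR's adjusted p = 4.07e-06). Cs, citrate synthase, was higher there by 0.49 ± 0.10 (adjusted p = 0.00155). Mdh2, malate dehydrogenase, was higher in brain CD11c cells than in ischemic microglia by 1.03 ± 0.13 (adjusted p = 1.11e-05) but lower than in spleen CD11c cells (log2 -0.48 ± 0.13; adjusted p = 0.0044).

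In the glycolysis list of 18 genes, 11 were higher and 2 lower in ischemic microglia, with a median log2 fold change of 0.81, and 15 were higher and none lower in brain over spleen CD11c cells, with a median of 1.30. Between brain CD11c cells and ischemic microglia 2 were higher and 4 lower, and between spleen CD11c cells and control microglia 3 were higher and 9 lower. Slc16a3, a lactate exporter, averaged 171 ± 62.3 CPM in ischemic and 59.1 ± 8.51 CPM in control microglia (SD, n = 4 each; log2 1.54 ± 0.28; edgeR's adjusted p = 0.000549). Hk2, a hexokinase, was lower in brain CD11c cells than in ischemic microglia (log2 -1.21 ± 0.12, SE; adjusted p = 1.07e-06). Pfkp, the platelet form of phosphofructokinase, ran the other way in that contrast, at 145 ± 33 CPM in brain CD11c cells and 5.59 ± 0.862 CPM in ischemic microglia.

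Carriers that feed or drain the chain were 7 of 13 higher and none lower in ischemic microglia, 5 higher and 1 lower in brain CD11c cells against ischemic microglia, 7 higher and none lower in brain over spleen CD11c cells, and 3 higher and 2 lower in spleen CD11c cells against control microglia, where 23.1% higher was below the share of all genes. Slc25a3, the phosphate carrier that supplies ATP synthase, averaged 447 ± 23.2 CPM in ischemic and 294 ± 25 CPM in control microglia (SD, n = 4 each; log2 0.60 ± 0.10, SE; edgeR's adjusted p = 0.000199). It averaged 589 ± 68.5 CPM in brain and 283 ± 10.8 CPM in spleen CD11c cells (log2 1.06 ± 0.10; adjusted p = 9.91e-08). Ucp2, an inner membrane carrier of the uncoupling protein family, was higher in ischemic microglia by 0.98 ± 0.14 (adjusted p = 6.65e-05).

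The 34 assembly factors of the chain outside the Nduf and Cox4 to Cox8 names were 4 higher and 8 lower in ischemic microglia, 8 higher and 2 lower in brain CD11c cells against ischemic microglia, 5 higher and 15 lower in brain against spleen CD11c cells, and 15 higher and 4 lower in spleen CD11c cells against control microglia. The shares higher were 11.8%, 23.5%, 14.7% and 44.1%, below that of all genes in the first contrast and in brain over spleen CD11c cells. Their median log2 fold changes were -0.11, 0.13, -0.15 and 0.28 in that order. Cox17, a copper chaperone of complex IV, was the largest of them in brain CD11c cells over ischemic microglia, at 24.5 ± 7.5 CPM against 7.52 ± 1.43 CPM (SD, n = 4 each; log2 1.70 ± 0.20, SE; edgeR's adjusted p = 3.83e-06). Sco1, another copper chaperone of complex IV, was lower in ischemic microglia (log2 -0.64 ± 0.14; adjusted p = 0.00178). Tmem126b, an assembly factor of complex I, was lower in brain than in spleen CD11c cells (log2 -1.03 ± 0.16; adjusted p = 4.22e-05).

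Genes that copy and read mitochondrial DNA were 2 of 23 higher and 6 lower in ischemic microglia, 5 and 5 in brain CD11c cells against ischemic microglia, 3 and 11 in brain against spleen CD11c cells, and 6 and 2 in spleen CD11c cells against control microglia, which is 26.1%, 21.7%, 47.8% and 8.7% lower. Polrmt, the mitochondrial RNA polymerase, averaged 21 ± 4.71 CPM in ischemic and 33.7 ± 2.72 CPM in control microglia (SD, n = 4 each; log2 -0.69 ± 0.13, SE; edgeR's adjusted p = 0.00091), in the contrast in which 4 mitochondrial genes were higher. Tfam, which packs mitochondrial DNA and starts its transcription, was lower in brain than in spleen CD11c cells (log2 -1.09 ± 0.12; adjusted p = 4.97e-07). Proteins of the mitochondrial ribosome were 17 of 77 higher and 4 lower in ischemic microglia, 34 and 0 in brain CD11c cells against ischemic microglia, 14 and 13 in brain against spleen CD11c cells, and 51 and 2 in spleen CD11c cells against control microglia, which is 22.1%, 44.2%, 18.2% and 66.2% higher. Mrpl33 was higher in brain CD11c cells than in ischemic microglia by 1.24 ± 0.11 (adjusted p = 3.2e-07).

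Genes of the cytosolic ribosome, taken by the Rpl and Rps names and thus with a few S6 kinases among them, are likewise mostly short. Of 92, 51 were higher and 1 lower in ischemic microglia, 31 and 2 in brain CD11c cells against ischemic microglia, 22 and 2 in brain against spleen CD11c cells, and 56 and 8 in spleen CD11c cells against control microglia, which is 55.4%, 33.7%, 23.9% and 60.9% higher. Their medians of 0.54, 0.38, 0.18 and 0.66 stood beside 0.48, 0.39, 0.37 and 0.48 for the nuclear chain members. Sequence shared with other genes was measured for the chain members only, so its effect on the counts of the ribosome list is not known. Rpl32 was higher in ischemic microglia, with a log2 fold change of 1.19 ± 0.18 (SE; edgeR's adjusted p = 9.54e-05).

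Regulators of mitochondrial biogenesis showed 1 of 12 higher and none lower in ischemic microglia, 1 and 3 in brain CD11c cells against ischemic microglia, 5 and 3 in brain against spleen CD11c cells, and 3 and 6 in spleen CD11c cells against control microglia, with shares higher below those of all genes in 3 contrasts and above in brain over spleen CD11c cells (41.7%). Nfe2l2, the transcription factor NRF2 of the oxidative stress response, was the one higher in ischemic microglia, at 1001 ± 188 CPM against 500 ± 127 CPM in control microglia (SD, n = 4 each; log2 1.00 ± 0.17, SE; edgeR's adjusted p = 0.000266). Ppargc1a, the coactivator best known for driving biogenesis, averaged 0.0298 CPM in brain CD11c cells, 1.06 CPM in spleen CD11c cells and 0.151 CPM in ischemic microglia. Coenzyme Q synthesis genes were 2 of 13 higher and 2 lower in ischemic microglia, 2 and 1 in brain CD11c cells against ischemic microglia, 3 and 3 in brain against spleen CD11c cells, and 3 and 4 in spleen CD11c cells against control microglia, shares of 15.4%, 15.4%, 23.1% and 23.1% higher that were below those of all genes in all 4 contrasts. Coq7, a hydroxylase of that pathway, was higher in ischemic microglia (log2 1.51 ± 0.22; adjusted p = 7.44e-05).

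In the antioxidant list of 19 genes, 11 were higher and 2 lower in ischemic microglia, 9 and 2 in brain CD11c cells against ischemic microglia, 11 and 2 in brain against spleen CD11c cells, and 11 and 4 in spleen CD11c cells against control microglia, which is 57.9%, 47.4%, 57.9% and 57.9% higher. Sod2, the superoxide dismutase of the mitochondrial matrix, averaged 66.3 ± 13.7 CPM in ischemic and 29.7 ± 3.27 CPM in control microglia (SD, n = 4 each; log2 1.16 ± 0.16, SE; edgeR's adjusted p = 4.95e-05). Of 16 hypoxia genes, 4 were higher and none lower in ischemic microglia, 3 and 3 in brain CD11c cells against ischemic microglia, 12 and 1 in brain against spleen CD11c cells, and 3 and 11 in spleen CD11c cells against control microglia, which is 25%, 18.8%, 75% and 18.8% higher. Hif1a was higher in ischemic microglia by 1.38 ± 0.21 (adjusted p = 0.000157). Pdk1, which restrains pyruvate entry into mitochondria, was lower in brain CD11c cells than in ischemic microglia (log2 -1.22 ± 0.11; adjusted p = 2.29e-07).

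Of 22 genes of mitochondrial import, fission, fusion and mitophagy, 6 were higher and 1 lower in ischemic microglia, 3 and 4 in brain CD11c cells against ischemic microglia, 10 and 0 in brain against spleen CD11c cells, and 6 and 9 in spleen CD11c cells against control microglia, which is 27.3%, 13.6%, 45.5% and 27.3% higher. Tomm20, an import receptor of the outer membrane, averaged 58.1 ± 6.49 CPM in brain and 22.5 ± 0.672 CPM in spleen CD11c cells (SD, n = 4 each; log2 1.37 ± 0.10, SE; edgeR's adjusted p = 9.36e-09). Of 15 cell cycle genes, all 15 were higher in ischemic than in control microglia, none was called in brain CD11c cells against ischemic microglia, 1 was higher and 5 lower in brain against spleen CD11c cells, and 14 were higher in spleen CD11c cells than in control microglia. Rrm2, which makes deoxynucleotides, averaged 31.1 ± 5.61 CPM in ischemic and 3.4 ± 3.18 CPM in control microglia (log2 3.17 ± 0.57; adjusted p = 0.000608). The part of cycling cells in the chain results was not tested.

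Libraries held 31569304 to 48245164 counts. All 10 microglia markers were detected in every group, with a summed level of 12612 to 14106 CPM in brain CD11c cells, 1167 to 1669 CPM in spleen CD11c cells, 31240 to 38861 CPM in ischemic microglia and 41093 to 47319 CPM in control microglia. The 12 dendritic cell markers summed to 11412 to 29527 CPM in brain CD11c cells, 10632 to 16826 CPM in spleen CD11c cells, 311 to 626 CPM in ischemic microglia and 806 to 1745 CPM in control microglia. The 10 monocyte and macrophage markers summed to 4252 to 12694 CPM in brain CD11c cells, 1340 to 1826 CPM in spleen CD11c cells, 3010 to 4280 CPM in ischemic microglia and 1016 to 2010 CPM in control microglia. Of these 10, 5 were called higher and 3 lower in brain CD11c cells against ischemic microglia. Against spleen CD11c cells 6 were higher and 2 lower. Of the 10 B cell markers, 9 were detected in brain CD11c cells, 10 in spleen CD11c cells, 8 in ischemic and 9 in control microglia, and they summed to 24548 to 86647 CPM in spleen CD11c cells and 181 to 641 CPM elsewhere, with Vpreb3 at 0 in both microglia groups. Of the 10 erythroid markers, 4, 10, 6 and 5 were detected in the same order, and they summed to 58.1 to 3631 CPM in spleen CD11c cells and at most 1.22 CPM elsewhere, with Car1 at 0 elsewhere. The part of these cell types in the differences between groups was not tested.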

How the data were processed

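Sorted cells of 4 groups were measured by stranded sequencing of polyadenylated RNA in 16 libraries, 4 per group. The authors deposited raw read counts per gene. The submitters' processing notes name FastQC 0.11.5, STAR 2.5.3a and GRCm38. The sources used here do not give the counting program, its strand setting or the annotation release, so antisense and overlapping genes cannot be told apart. Of 50600 IDs, 50376 were named from GENCODE release M21 or a name table.

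Counts were scaled by TMM, filtered with filterByExpr and tested with edgeR 4.0.16 (glmQLFit, robust, glmQLFTest; two-sided) under R 4.3.3, with all 16 libraries in 1 fit of 4 group means. P-values were adjusted over 16345 genes by the Benjamini-Hochberg method at 0.05. The method was tested on simulated data with few changed genes, evenly split by direction. Such data cannot judge contrasts in which many genes change or the choice of scaling. Fold changes are log2, the first group named over the second. Library totals were 31569304 to 48245164 counts.

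The members, lists and comparisons were chosen with earlier results of these data known. Named were the mitochondrial genes, complex II, paralogue sets, the 5 largest called changes per direction and comparison, the 3 most abundant members per length of each complex, and per list 3 called genes in the main direction and 1 in the other. Alternatives were relative log expression scaling, library totals, library size without the mitochondrial chromosome, DESeq2 1.42.0, limma-voom (limma 3.58.1), no filter, only the 2 groups compared, leaving out each library, and, added after seeing the data, brain CD11c libraries 1 and 2 or 3 and 4 alone.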

Additional observations from a re-analysis of the deposited data

Results flagged for a closer look

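In 15 of 199 groups of 4 libraries, 1 library stood far from the other 3 in a named member, where chance flags about 1 in 20 groups. Brain CD11c library 4 held 7127 CPM of mt-Co1, against 4055 to 4411 CPM in the other 3. Ischemic library 2 held 345 CPM of Cox4i1 (others 302 to 305), and ischemic library 4 held 123 CPM of Cox6b1 (others 109 to 111) and 58.3 CPM of Atp5mpl (others 50.3 to 51.5). Control library 1 held 177 CPM of Sdha (others 199 to 202) and 57 CPM of Sdhd (others 65.9 to 67.4), and control library 4 held 37.1 CPM of Cox7a2 (others 29.9 to 30.7).

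Among spleen CD11c cells, library 2 held 794 CPM of mt-Nd2 (others 1106 to 1123). Library 1 held 186 CPM of Cox4i1 (others 200 to 202), 67.9 CPM of Cox5a (others 53.2 to 54.6) and 32.8 CPM of Uqcr10 (others 35.3 to 35.6). Library 3 held 0.99 CPM of Cox6a2 (others 0.467 to 0.533) and 42.9 CPM of Atp5mpl (others 45.9 to 46.2). Library 4 held 19.3 CPM of Ndufab1 (others 16.8 to 17.1) and 89.1 CPM of Atp5e (others 81.3 to 82).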

How the results depend on the processing

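No called change of a named member changed sign under the alternatives run. No paired analysis was possible because the groups compared share fewer than 2 numbers that pair libraries. With library totals, the nuclear members lower in ischemic microglia numbered 7, those lower in brain CD11c cells against ischemic microglia 0 (also 0 with only the 2 groups), those higher and lower in brain over spleen CD11c cells 19 and 8, and those lower in spleen CD11c cells against control microglia 2. Nuclear members higher in brain CD11c cells against ischemic microglia numbered 58 with library totals and 32 with no filter. With brain libraries 3 and 4 alone they numbered 31, and with libraries 1 and 2 alone 59. Mitochondrial members lower in brain CD11c cells against ischemic microglia numbered 0 with library totals, 3 with DESeq2, 3 with limma-voom, 2 with no filter, 0 with only the 2 groups and 3 with brain libraries 1 and 2 alone. Against spleen CD11c cells, 1 was lower with library totals and 1 with brain libraries 3 and 4 alone, which also gave 32 nuclear members higher and 6 lower, and libraries 1 and 2 alone gave 6 lower. Leaving out 1 library gave 51 to 59 nuclear members higher and 2 to 5 lower in ischemic microglia, 38 to 56 and 1 to 3 in brain CD11c cells against ischemic microglia (mitochondrial lower 0 to 6), 40 to 65 and 3 to 5 against spleen (mitochondrial lower 0 to 1), and 51 to 63 and 3 to 4 in spleen CD11c cells against control microglia. Library totals moved the median log2 fold change of all genes to -0.20, 0.10, -0.30 and 0.34 in the 4 contrasts, and the members' median relative to it stayed at 0.54, 0.39, 0.40 and 0.37. In brain over spleen CD11c cells, library totals called 3807 genes higher and 7113 lower over all tested genes. With brain libraries 3 and 4 alone these numbers were 4847 and 6054. Members under 1 CPM, such as Cox4i2, rest on few counts.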
